A study of Mus musculus with 35 samples.

Results

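The genes described here are 10 members of the transforming growth factor β (TGF-β) pathway, taken by their symbols from the 22180 genes of the deposited matrix: the ligands Tgfb1, Tgfb2 and Tgfb3, the receptors Tgfbr1, Tgfbr2 and Tgfbr3, the intracellular proteins Zfyve9, Smad2 and Smad3, and the secreted matrix protein Tgfbi. They were read in 35 libraries from the mouse small intestine, 5 in each of 7 groups. RiboTag libraries hold RNA that was pulled down with HA-tagged ribosomes from the muscularis externa, the muscle layer of the gut wall, of naive Sox10iCreERT2Rpl22HA/+ mice carrying Cre. In these mice the Sox10 promoter, active in enteric glia, drives a Cre that tamoxifen activates and that switches on the tagged ribosomal protein. The other 6 groups are primary enteric glial cultures from wildtype mice on a BL6 background. Their cells were grown as neurospheres in proliferation medium for 7 days and differentiated for 3 days, as the labels give it, on a coating of Matrigel, of laminin or of poly-L-ornithine. They were then kept for 24 h with IL-1β at 10 ng/ml or without it (naive). The study's methods instead describe 5 days of differentiation for analyses other than morphology, with IL-1β given on day 5. Matrigel is an extract of basement membrane that also carries growth factors and laminin is 1 protein of that membrane, and both are called protein coatings here, while poly-L-ornithine is a synthetic polymer. The study asked how the coating shapes enteric glia, their reaction to the inflammatory cytokine IL-1β, and their distance from glia in tissue.

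TGF-β ligands are secreted in a latent form, held by their own propeptide and by latent TGF-β binding proteins in the matrix, and are set free by integrins, thrombospondin or proteases. An active ligand binds the type II receptor TGFBR2, which recruits and phosphorylates the type I receptor TGFBR1. TGFBR1 in turn phosphorylates SMAD2 and SMAD3, which enter the nucleus with SMAD4 and regulate genes of the matrix, the cytoskeleton and the cell cycle. In the gut, TGF-β is known as a regulator of inflammation and of fibrosis.

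The libraries were made with a kit that reads the 3′ end of polyadenylated RNA, so that a long transcript yields no more reads than a short one. Levels of different genes are set side by side on that ground. Other differences between genes in how their reads are counted were not tested. All values are normalized counts, that is, estimated reads per gene which the authors had divided by a size factor for each library. A library summed to between 7522181 and 9185843 normalized counts, with 11945 to 14513 genes above 15. Ccl2, a chemokine gene that IL-1β induces, ran from 6184 to 13691 in the IL-1β-treated cultures and from 55.1 to 271 in the naive cultures, so that each library matched its treatment label. The glial factor Sox10 ran from 13097 to 20215 in RiboTag and from 3749 to 12590 in the cultures. Cultures also held markers of other cells. The 14 fibroblast markers summed to between 9037 and 12441 in RiboTag and between 18928 and 101958 in the 30 cultures, and 14 of 14 had a mean above 15 in RiboTag, against 13 of 14 over the cultures. The 14 smooth muscle markers summed to between 389119 and 627188 in RiboTag and between 12682 and 66624 in the cultures, and the 15 glial markers to between 81670 and 124268 in RiboTag and between 8101 and 29487 in the cultures. In bulk libraries such as these, fewer cells of a type and less RNA per cell cannot be told apart.

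All 10 members had a mean above 100 in each of the 7 groups, and all 10 passed the filter on low values (a maximum above 15). In the 30 culture libraries Tgfbi had the highest mean, 983 ± 590 normalized counts (SD, n = 30), followed by Tgfbr2 with 718 ± 220 and Smad3 with 533 ± 172. Smad2 had the lowest mean, 144 ± 60.7, and the type I receptor Tgfbr1 averaged 175 ± 63.0. With the 7 groups ordered by their means, 2 members had a gap between neighbouring groups. Tgfb2 and Tgfbr3 were highest in RiboTag, where the lowest library lay above the highest of the 30 cultures. All other neighbours in the order, for each of the 10 members, had overlapping ranges.

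Members that the later comparisons give only in part had these group means. Tgfb2 averaged 2683 ± 681 in RiboTag (SD, n = 5 in each group), between 326 and 550.3 in the 3 groups of IL-1β-treated cultures and between 331 and 387 in the 3 naive groups. Tgfbr2 averaged 379 ± 76.1 in RiboTag, 577 to 733 after IL-1β and 731 to 857 in naive cultures. It was thus the receptor with the highest level in each culture group, whereas Tgfbr3 was the highest in RiboTag, with 608 ± 125. Smad3 averaged 304 ± 119 in RiboTag, 484 to 690.1 after IL-1β and 392.3 to 558 in naive cultures, and exceeded Smad2 in each of the 7 groups, Smad2 averaging 122 ± 24.7 in RiboTag, 110.3 to 178 after IL-1β and 132 to 163 in naive cultures. Zfyve9 averaged 476 ± 104 in RiboTag, 238 to 267 after IL-1β and 180.2 to 354 in naive cultures, where the order ran from Matrigel through laminin to poly-L-ornithine.

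**Figure D1:**
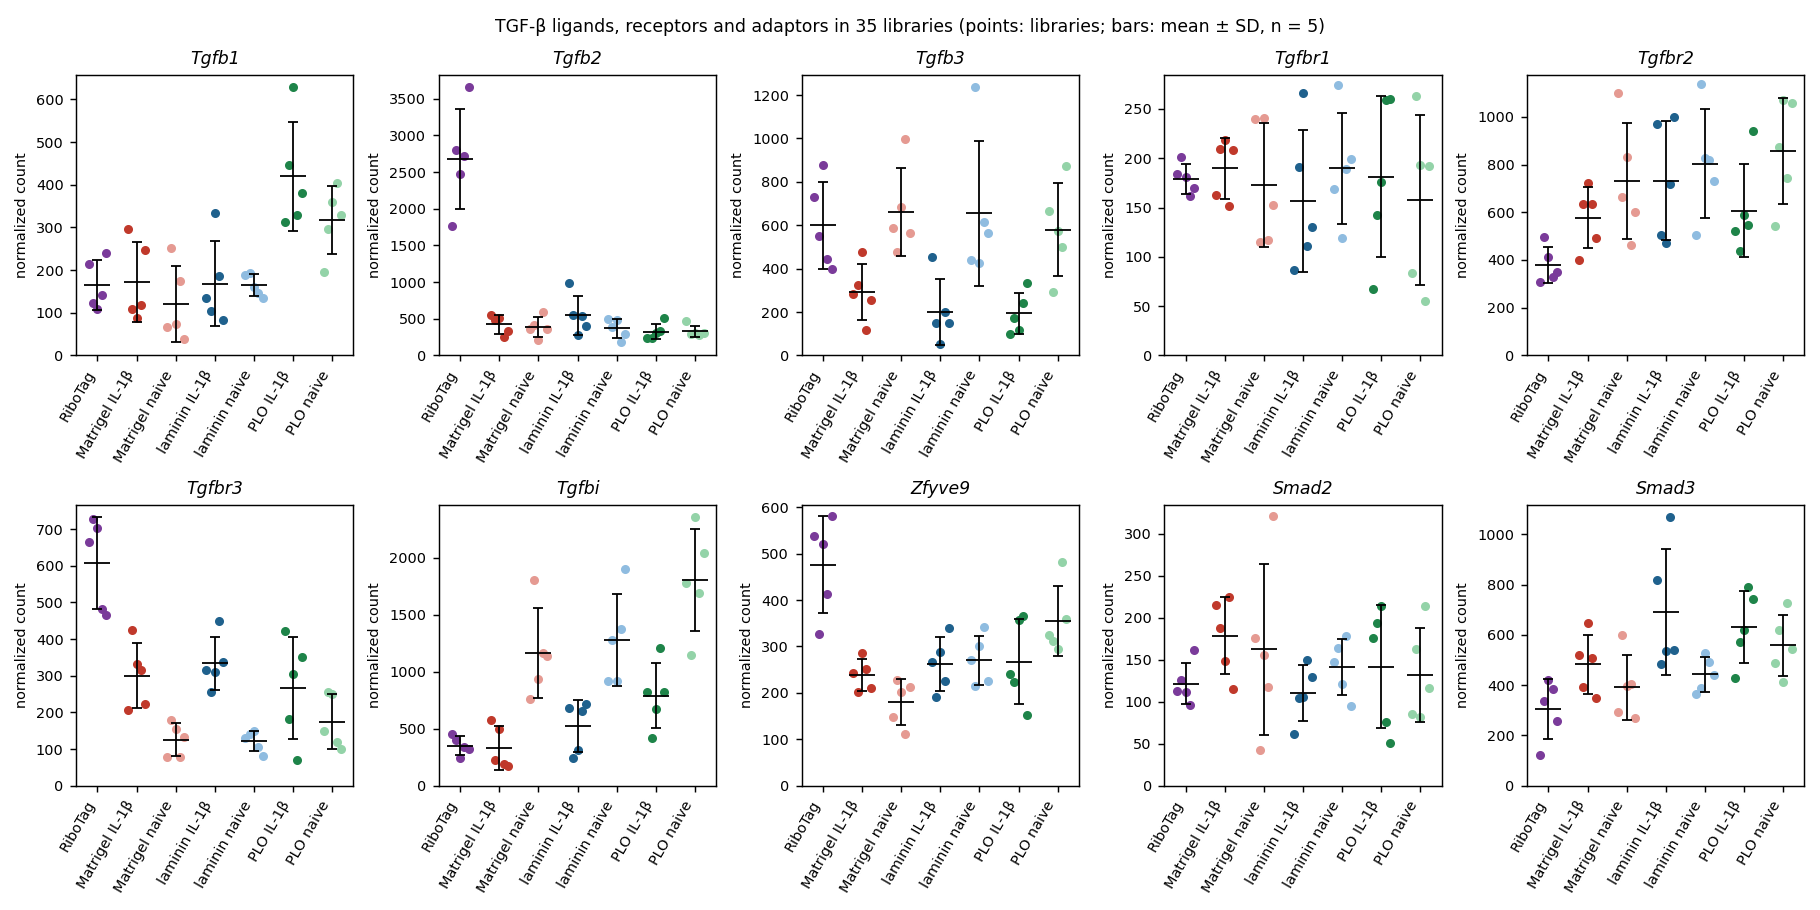
Normalized count (vertical axis, linear from 0, own scale in each panel) of each of the 10 genes in 35 libraries; points are libraries, and bars are the mean ± SD of 5 libraries. PLO is poly-L-ornithine. RiboTag stands above the cultures for Tgfb2 (lowest library 1761) and Tgfbr3 (lowest library 465), while Tgfb3 and Tgfbi are low in the IL-1β-treated cultures beside their naive cultures.

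To show which letters stand before the start of members whose level differed between groups, the 250 bases before the RefSeq transcription start are given for 3 of them (build GRCm38.p6, which is mm10), 5′ to 3′ on the gene's own strand. Of the 10 members, 7 had an entry that could be printed, and Tgfb3 and Tgfbr3 were not among them. The 3 printed are the called members whose stretch held a match to a motif named next. Capitals mark matches on either strand to the AP-1 motif TGANTCA (where N is any base), the SMAD-binding motif CAGACA or a relaxed κB motif of GGG, any 5 bases and CC. Overlapping matches of 1 motif run together.

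Tgfbi promoter, chromosome 13, 56609336 to 56609585, plus strand: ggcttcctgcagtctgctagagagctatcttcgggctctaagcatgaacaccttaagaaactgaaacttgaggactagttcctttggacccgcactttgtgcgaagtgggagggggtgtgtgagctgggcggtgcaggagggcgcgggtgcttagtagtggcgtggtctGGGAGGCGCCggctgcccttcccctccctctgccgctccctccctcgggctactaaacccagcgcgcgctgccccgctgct

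Tgfb1 promoter, chromosome 7, 25686752 to 25687001, plus strand: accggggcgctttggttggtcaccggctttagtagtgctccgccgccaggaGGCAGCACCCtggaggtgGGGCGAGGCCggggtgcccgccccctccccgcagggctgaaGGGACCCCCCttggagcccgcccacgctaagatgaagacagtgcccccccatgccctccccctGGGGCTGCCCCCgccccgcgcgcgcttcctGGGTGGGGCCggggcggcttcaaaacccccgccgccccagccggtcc

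Tgfb2 promoter, chromosome 1, 186705990 to 186706239, minus strand: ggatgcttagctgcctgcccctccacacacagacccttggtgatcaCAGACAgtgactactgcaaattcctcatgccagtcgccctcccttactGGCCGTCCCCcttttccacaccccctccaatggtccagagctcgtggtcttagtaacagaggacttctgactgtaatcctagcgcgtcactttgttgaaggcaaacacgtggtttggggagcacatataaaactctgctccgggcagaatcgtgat

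The Tgfbi stretch held 1 κB match, GGGAGGCGCC, from 81 to 72 bases before the start, and no match to the other motifs. The Tgfb1 stretch, with 75.2% G and C, held 7 κB matches, of which 3 overlap, and no match to the other motifs. The Tgfb2 stretch, whose start lies inside the span of the gene, held the SMAD motif CAGACA from 204 to 199 bases before the start and 1 κB match, GGCCGTCCCC. The stretches of Tgfbr2, Zfyve9 and Smad3, members also called in a comparison, are not printed and held no match to any of these motifs. Over 32851 mouse promoter entries of the same length, 45.8% held the κB motif, 17.1% the SMAD motif and 6.75% the AP-1 motif. A match describes letters and is no evidence of a bound factor.

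IL-1β moved 3 of the 10 members when the response was averaged over the 3 coatings. The ligand Tgfb3 and the matrix protein gene Tgfbi fell, and the co-receptor Tgfbr3 rose, while the other 7 did not pass the test. Differences between groups were tested with limma on log2(normalized count + 2) over the 30 culture libraries, and a gene was called at an adjusted p (Benjamini-Hochberg) under 0.05. Of the 20687 genes tested, 7.44% were called, 3.42% higher and 4.02% lower after IL-1β. The median log2 fold change of the 10 members was 0.02, and that of all genes tested was -0.04. The 3 calls held in each of 9 alternative settings of the analysis and without any 1 of the 30 libraries.

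Among the ligands, Tgfb3 (chromosome 12, 86056743 to 86079041), a ligand known from palate closure and wound repair, changed most. On Matrigel it had 284, 324, 476, 117 and 258 normalized counts after IL-1β and 586, 476, 683, 999 and 566 in naive cultures. On laminin the values were 451, 149.6, 53.0, 198 and 148 after IL-1β, against 438, 1235, 425, 615 and 563 in naive cultures. On poly-L-ornithine they were 100.5, 172, 119, 244 and 334 after IL-1β, against 664, 293, 571, 498 and 873 in naive cultures. The treated libraries thus lay below the naive ones on Matrigel, and overlapped them by 1 high treated library on laminin and, with poly-L-ornithine, by 1 low naive library. All 15 treated libraries lay below the naive mean of their coating. Over the coatings Tgfb3 fell by 1.59 on the log2 scale (SE 0.245, limma adjusted p = 1.99e-05), a fold of 0.331 (n = 15 per treatment).

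Coating by coating, Tgfb3 passed the test on laminin (log2 fold change -1.90, limma adjusted p = 0.00902) and on poly-L-ornithine (-1.62, limma adjusted p = 0.0314). The laminin call was lost in a fit of only the groups compared (limma adjusted p = 0.0569). On Matrigel, where the groups were apart by the narrow gap of 476.26 in the highest treated and 476.34 in the lowest naive library, it had a log2 fold change of -1.26 and a limma adjusted p of 0.157. The Matrigel value passed in 2 of 10 alternative settings. These were a fit of only the groups compared (limma adjusted p = 0.00464) and a replicate block by rank of the library serial number (0.00264). The response on the protein coatings differed from that on poly-L-ornithine by 0.04 (95% interval -1.02 to 1.11, limma adjusted p = 0.997), so that a difference between coatings was not shown. The poly-L-ornithine call was lost when any 1 of 7 of its 10 libraries was left out (naive replicates 1, 3, 4 and 5, IL-1β replicates 1, 2 and 3), with limma adjusted p-values up to 0.113.

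Tgfb1 (chromosome 7, 25687002 to 25705077), the ligand best known from immune regulation and fibrosis, averaged 253 ± 158 after IL-1β and 201 ± 109 in naive cultures (SD, n = 15 each). Its log2 fold change was 0.30 (95% interval -0.16 to 0.76, limma adjusted p = 0.551). Tgfb2 (chromosome 1, 186622787 to 186709697), a ligand known from neural crest, heart and eye development, averaged 434 ± 192 after IL-1β and 363 ± 110 in naive cultures. Its log2 fold change was 0.21 (95% interval -0.13 to 0.55, limma adjusted p = 0.599). For both, treated and naive libraries overlapped on every coating.

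Since Tgfb3 fell and the other ligands did not pass the test, the make-up of the ligand transcripts is given as shares of the summed counts of Tgfb1, Tgfb2 and Tgfb3, as a description with no test. On Matrigel, Tgfb3 made up 32.0 ± 8.33% after IL-1β and 57.1 ± 10.1% in naive cultures (SD, n = 5 each). On laminin it made up 20.1 ± 7.72% after IL-1β and 53.6 ± 13.6% in naive cultures, and with poly-L-ornithine 20.2 ± 7.06% after IL-1β and 45.8 ± 9.18% in naive cultures. Tgfb3 was the most abundant ligand in 0 of 15 treated libraries and in 12 of 15 naive ones. After IL-1β the most abundant ligand was Tgfb2 in 5 of 5 libraries on Matrigel and 4 of 5 on laminin, whereas on poly-L-ornithine it was Tgfb1 in 3 of 5 and Tgfb2 in 2 of 5. The summed ligand counts averaged 888, 919 and 939 after IL-1β on Matrigel, laminin and poly-L-ornithine, against 1169.8, 1191 and 1229 in the naive cultures.

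**Figure D2:**
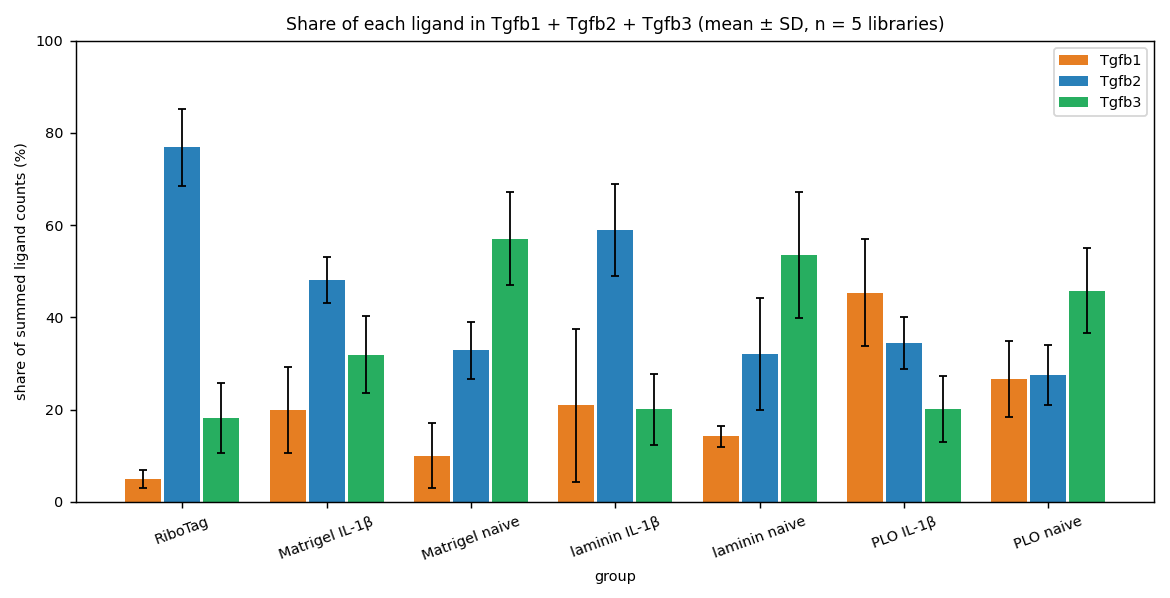
Share of each ligand in the summed normalized counts of Tgfb1, Tgfb2 and Tgfb3 (vertical axis, percent) in the 7 groups; bars are means over 5 libraries and lines the SD. Tgfb2 makes up 76.9% in RiboTag, and Tgfb3 is the largest share in each group of naive cultures and the smallest on laminin and poly-L-ornithine after IL-1β.

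Among the receptors, Tgfbr3 (chromosome 5, 107106567 to 107289629) encodes betaglycan, a proteoglycan that presents TGF-β2 in particular to the signaling receptors and that, once shed, can bind and hold ligands. On Matrigel it had 206, 424, 332, 315 and 222 normalized counts after IL-1β and 79.1, 180.0, 156, 78.8 and 134 in naive cultures. On laminin it had 315, 256, 309.6, 451 and 338 after IL-1β and 130.1, 141, 148, 106 and 80.9 in naive cultures. On poly-L-ornithine it had 421, 183, 305, 71.5 and 352 after IL-1β and 151, 257, 250.3, 118 and 99.9 in naive cultures. On both protein coatings each treated library lay above each naive one, and with poly-L-ornithine the groups overlapped, with IL-1β replicate 4 below all naive libraries. In total 14 of 15 treated libraries exceeded the naive mean over the 3 coatings.

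Averaged over the coatings, Tgfbr3 rose by 1.07 on the log2 scale (SE 0.215, limma adjusted p = 0.000284), a fold of 2.09. On laminin the log2 fold change was 1.45 (limma adjusted p = 0.0188), which was lost without naive replicate 5 (0.0780) or IL-1β replicate 4 (0.0773), and with limma-voom weights (0.0692). On Matrigel it was 1.27 (limma adjusted p = 0.0567), and it passed without naive replicate 2 (0.0483) or IL-1β replicate 1 (0.0496). On poly-L-ornithine it was 0.47 (95% interval -0.27 to 1.22, limma adjusted p = 0.692). The response on the protein coatings minus that on poly-L-ornithine was 0.89 (95% interval -0.02 to 1.81, limma adjusted p = 0.961), so that the test of the difference was not passed.

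The signaling receptors did not pass the test. Tgfbr2 (chromosome 9, 116087695 to 116175363), the ligand-binding type II receptor, averaged 639 ± 195 after IL-1β and 797 ± 221 in naive cultures (SD, n = 15 each). Its log2 fold change was -0.32 (95% interval -0.60 to -0.04, limma adjusted p = 0.185), and 12 of 15 treated libraries lay below the naive mean over the 3 coatings. Tgfbr1 (chromosome 4, 47353222 to 47414926), the type I receptor kinase, averaged 176 ± 62.2 after IL-1β and 174 ± 65.9 in naive cultures, with a log2 fold change of 0.04 (95% interval -0.42 to 0.51, limma adjusted p = 0.953).

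Of the intracellular members, none passed the test. Smad3 (chromosome 9, 63646766 to 63757994), a receptor-activated SMAD that binds DNA directly, averaged 602 ± 189 after IL-1β and 465 ± 124 in naive cultures (SD, n = 15 each), and 12 of 15 treated libraries lay above the naive mean over the 3 coatings. The log2 fold change of 0.36 (95% interval 0.08 to 0.64) missed the threshold with a limma adjusted p of 0.116. Smad2 (chromosome 18, 76241090 to 76311748), the other SMAD that TGFBR1 activates, averaged 144 ± 57.3 after IL-1β and 145 ± 66.0 in naive cultures, with a log2 fold change of -0.01 (95% interval -0.52 to 0.50, limma adjusted p = 0.991). Zfyve9, on chromosome 4 from 108637466 to 108781269, codes for the endosomal anchor SARA, which holds SMAD2 and SMAD3 near the active receptor. It averaged 256 ± 62.1 after IL-1β and 268 ± 92.4 in naive cultures, with a log2 fold change of -0.02 (95% interval -0.35 to 0.31, limma adjusted p = 0.961).

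Tgfbi (chromosome 13, 56609586 to 56639359) encodes a secreted protein that binds collagens and integrins, and is known as a gene that TGF-β induces. On Matrigel it had 576, 223, 501, 191 and 171 normalized counts after IL-1β and 765, 1809, 937, 1166 and 1139 in naive cultures. On laminin it had 687, 244, 316, 657 and 721 after IL-1β and 923, 1284, 923, 1372 and 1901 in naive cultures. On poly-L-ornithine it had 827, 422, 670.2, 1211 and 821 after IL-1β and 1778, 1149, 2355, 1693 and 2042 in naive cultures. Treated libraries lay below all naive libraries of their coating on Matrigel and laminin, while with poly-L-ornithine IL-1β replicate 4 exceeded the lowest naive library.

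Over the coatings Tgfbi fell by 1.51 on the log2 scale (SE 0.209, limma adjusted p = 8.31e-06), a fold of 0.352. By coating the log2 fold change was -1.93 on Matrigel (limma adjusted p = 0.00225), -1.36 on laminin (0.0469) and, with poly-L-ornithine, -1.23 (0.0764). The laminin call was lost without naive replicate 2, 4 or 5 or IL-1β replicate 2 or 3, with limma adjusted p-values up to 0.146, and with library totals rescaled to a common sum (0.0506). The poly-L-ornithine value passed without IL-1β replicate 4 (limma adjusted p = 0.0429) and in 5 of 10 alternative settings (lowest limma adjusted p = 0.00066). The response on the protein coatings minus that on poly-L-ornithine was -0.41 (95% interval -1.32 to 0.50, limma adjusted p = 0.961).

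Counted by coating, 1 member was called on Matrigel, where 1.96% of all genes were, 3 on laminin (1.88% of all genes) and 1 on poly-L-ornithine (2.34% of all genes). No member passed the test of a difference in response between the protein coatings and poly-L-ornithine, which 0% of all genes passed, with 867 of 20687 genes at an unadjusted limma p under 0.05 and 3 called by limma-voom. Smooth muscle markers, some of which TGF-β is known to induce, had lower mean sums after IL-1β, as did Tgfb3 and Tgfbi. The sum ran from 17854 to 34860 after IL-1β and from 28981 to 59805 in naive cultures on Matrigel, from 20132 to 32778 after IL-1β and from 21131 to 66624 in naive cultures on laminin, and from 12682 to 19656 after IL-1β and from 20877 to 30053 in naive cultures on poly-L-ornithine. The difference passed on poly-L-ornithine (fold 0.639, two-sided exact permutation test, p = 0.00794, adjusted p = 0.0433 over 60 tests of marker sums), and on Matrigel and laminin it did not (exact p = 0.0635 and 0.103, adjusted p = 0.224 and 0.326). Fibroblast and glial sums had folds between 0.692 and 0.850 on the 3 coatings, with exact permutation p-values of 0.119 or more. Their part in the results of the members was not tested.

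**Figure D3:**
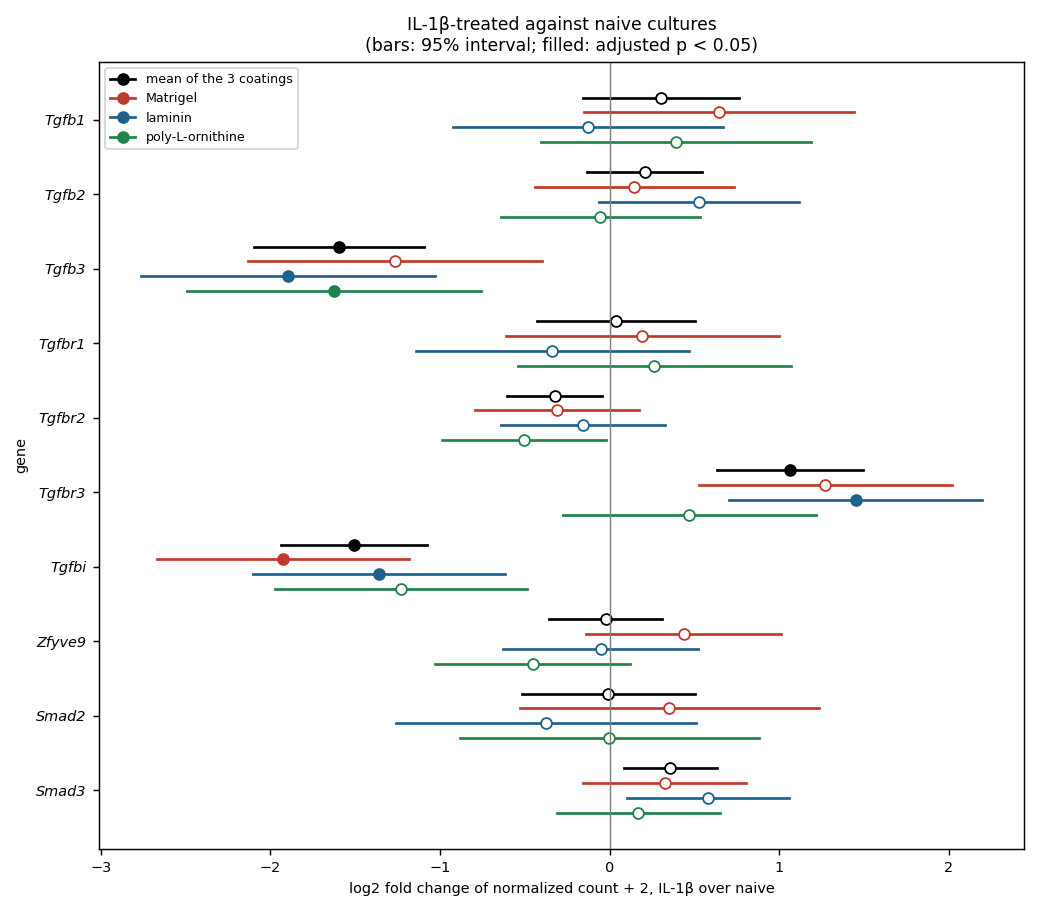
Log2 fold change (horizontal axis) of the 10 genes after IL-1β over naive, as a mean of the 3 coatings and on each; points are limma estimates on log2(normalized count + 2), lines the 95% interval, and filled points have an adjusted p under 0.05. Tgfb3 (-1.59) and Tgfbi (-1.51) lie left of 0 and Tgfbr3 (1.07) right of it in the mean of the coatings.

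Between coatings, the 1 member called in the fit without a replicate block was Tgfb1, with lower values on the protein coatings. In IL-1β-treated cultures it had 296, 109, 87.0, 117 and 247 normalized counts on Matrigel and 135, 104, 333, 187 and 82.3 on laminin, against 314, 447, 628, 328 and 380.2 on poly-L-ornithine. In naive cultures it had 66.7, 251, 72.7, 175 and 38.7 on Matrigel and 189, 193, 159, 147 and 134 on laminin, against 196, 296, 361, 405 and 329 on poly-L-ornithine. In both states all 10 libraries on the protein coatings lay below the poly-L-ornithine mean, and the ranges overlapped by 1 high laminin library after IL-1β and 1 high Matrigel library without it.

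After IL-1β, Tgfb1 was the 1 member called between the protein coatings and poly-L-ornithine, a comparison in which 0.305% of all genes were called. The count of genes called was 63, and 17 without poly-L-ornithine replicate 3 and 32 without its replicate 5, 38 to 41 without Matrigel replicate 2 or 3 or laminin replicate 1 or 5, and 92 at most (without laminin replicate 3). It was lower on the protein coatings, with a log2 difference of -1.42 (SE 0.344, limma adjusted p = 0.0459). The call was kept in 3 of 15 fits that left out 1 library (Matrigel replicate 1 or 5 or laminin replicate 3), and lost without any of the other 12, with limma adjusted p-values up to 0.217 (without poly-L-ornithine replicate 3) and log2 differences between -1.56 and -1.26 over the 15 fits. In naive cultures the log2 difference of Tgfb1 was -1.28 (SE 0.344), but its limma adjusted p was 0.328, and 0% of all genes were called there, with 1046 of 20687 at an unadjusted limma p under 0.05 and 1 called by limma-voom. The difference in Tgfb1's response to IL-1β between the coatings was -0.14 (95% interval -1.11 to 0.84).

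No other member was called by coating in the fit without a replicate block. The study itself, with DESeq2 at an FDR under 0.05, lists Zfyve9 in naive cultures and Tgfbi after IL-1β as higher on poly-L-ornithine. Its gene counts in naive cultures are for pairs of coatings, whereas the differences here average Matrigel and laminin unless 1 is named. After IL-1β, Tgfbi averaged 332 ± 191 on Matrigel and 525 ± 227 on laminin, against 790.0 ± 287 on poly-L-ornithine (SD, n = 5 each), and in naive cultures 1163 ± 396 and 1281 ± 403, against 1804 ± 448. All 10 of its IL-1β-treated libraries on the protein coatings lay below the poly-L-ornithine mean, as for Tgfb1. The log2 difference of the protein coatings from poly-L-ornithine was -0.995 (95% interval -1.64 to -0.35, limma adjusted p = 0.272) after IL-1β and -0.58 (-1.22 to 0.06, adjusted p = 0.943) in naive cultures. After IL-1β, Tgfbi differed by -1.35 on Matrigel alone (limma adjusted p = 0.183) and by -0.64 on laminin alone (0.794). With a replicate block by rank of the library serial number, the averaged difference after IL-1β had a limma adjusted p of 0.00629. In naive cultures Zfyve9 had its 10 libraries on the protein coatings below the poly-L-ornithine mean of 354, with a log2 difference of -0.69 (95% interval -1.19 to -0.19, limma adjusted p = 0.752). By coating, naive Zfyve9 differed by -0.99 on Matrigel alone (limma adjusted p = 0.584) and by -0.38 on laminin alone (0.977). After IL-1β its difference was -0.04 (95% interval -0.54 to 0.45). The lymphocyte marker sum was also lower in naive cultures, from 0 to 139.7 on the protein coatings and from 109 to 217 on poly-L-ornithine (log2 difference -1.74, two-sided exact permutation test, adjusted p = 0.0200). Of its 7 measured markers 1, Trbc2, had a mean above 15, Cd3e was at 0 in all 15 naive libraries, and its part in the result was not tested. Laminin against Matrigel called none of the 10 members and 0% of all genes, with 716 genes at an unadjusted limma p under 0.05 and 0 called by limma-voom, and the members' log2 differences lay between -0.40 (Tgfb3) and 0.43 (Tgfbi). The summed smooth muscle markers were higher on the protein coatings after IL-1β (fold 1.58, two-sided exact permutation test, p = 0.00266, adjusted p = 0.0178), the opposite direction to Tgfb1. Endothelial and enteric neuron marker sums had folds of 0.626 (exact permutation p = 0.0160, adjusted p = 0.0738) and 0.793 (exact p = 0.04995, adjusted p = 0.187), the same direction as Tgfb1. Glial and fibroblast sums had folds of 1.01 and 1.08 after IL-1β (exact permutation p = 0.946 and 0.793). In naive cultures the smooth muscle fold was 1.55 (exact permutation p = 0.0193, adjusted p = 0.0828). The part of these in the result was not tested.

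**Figure D4:**
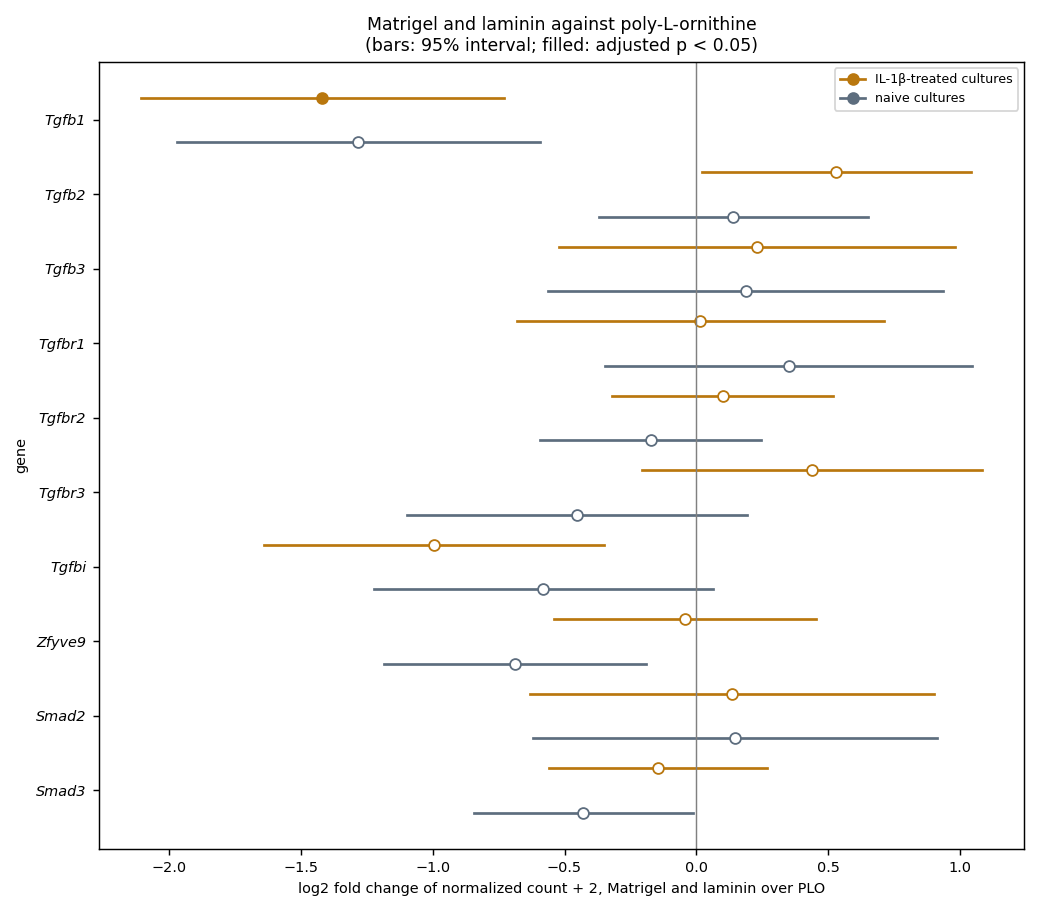
Log2 difference (horizontal axis) of the 10 genes on the protein coatings, Matrigel and laminin, over poly-L-ornithine (PLO) in IL-1β-treated and in naive cultures; points are limma estimates on log2(normalized count + 2), lines the 95% interval, and filled points have an adjusted p under 0.05. Tgfb1 lies at -1.42 after IL-1β and -1.28 in naive cultures, and the point of the IL-1β-treated cultures is the filled one.

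Set against naive cultures, RiboTag libraries from tissue held more Tgfb2, Tgfbr3 and Zfyve9 and less Tgfbi, Tgfbr2 and Smad3, so that 6 of 10 members were called. Of the 20320 genes tested in this comparison 45.5% were called, 31.3% higher and 14.1% lower in RiboTag, so that the members' share is near that of all genes. The median of all genes was 0.32 on the log2 scale, and the median of the 10 members was -0.08. RNA pulled down with ribosomes and RNA of cultures also differ in how they were made, and the preparation and the state of the cells cannot be told apart.

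Tgfb2 had 1761, 2798, 2479.8, 2720.5 and 3657 normalized counts in RiboTag, against 190.05 to 588 with a median of 360.0 in the 15 naive cultures. The groups did not overlap, and the highest of the 30 cultures had 984, after IL-1β on laminin. The log2 fold change was 2.90 (SE 0.208, limma adjusted p = 5.37e-14), a fold of 7.48, and lay 2.58 above the median log2 fold change of all genes. Tgfb2 made up 76.9 ± 8.32% of the ligand counts in RiboTag, against 32.9 ± 6.19%, 32.2 ± 12.2% and 27.5 ± 6.44% in naive cultures on Matrigel, laminin and poly-L-ornithine (SD, n = 5 each).

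The other ligands did not pass. Tgfb3 averaged 601 ± 200 in RiboTag (SD, n = 5) and 632 ± 241 in the naive cultures (n = 15), with a log2 fold change of -0.05 (95% interval -0.52 to 0.42). Tgfb1 averaged 165 ± 58.3 in RiboTag and 201 ± 109 in the naive cultures, with a log2 fold change of -0.10 (95% interval -0.74 to 0.54). Set against naive poly-L-ornithine cultures alone Tgfb1 was lower in RiboTag (-0.96, limma adjusted p = 0.0490, 36.6% of all genes called). Against naive Matrigel and laminin cultures, which called 37.8% and 37.9% of all genes, it had log2 fold changes of 0.69 (limma adjusted p = 0.162) and -0.05 (0.968). The 3 comparisons share the RiboTag libraries.

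Tgfbr3 had 664, 727, 702, 482 and 465 in RiboTag, against 78.8 to 257 with a median of 134 in the naive cultures. The groups did not overlap, and the log2 fold change was 2.16 (SE 0.267, limma adjusted p = 2.31e-08), or 1.84 above the median of all genes. Tgfbr2 had 309.6, 497, 411, 328 and 349 in RiboTag, against 463 to 1135 with a median of 819.8 in the naive cultures, an overlap by RiboTag replicate 2. Its log2 fold change was -1.04 (SE 0.190, limma adjusted p = 2.58e-05). Tgfbr1 averaged 179 ± 15.1 in RiboTag and 174 ± 65.9 in the naive cultures, with a log2 fold change of 0.16 (95% interval -0.45 to 0.78).

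Inside the cell, Smad3 had 122, 337, 421, 384 and 258 in RiboTag, against 271 to 726 with a median of 441 in the naive cultures. The ranges overlapped, and the log2 fold change of -0.68 (SE 0.223, limma adjusted p = 0.0122) was -0.38 (limma adjusted p = 0.138) without RiboTag replicate 1, the lowest library. By coating it was -0.43 against Matrigel (limma adjusted p = 0.233), -0.64 against laminin (0.0602) and -0.96 against poly-L-ornithine (0.00507). Smad2 averaged 122 ± 24.7 in RiboTag and 145 ± 66.0 in the naive cultures, with a log2 fold change of -0.14 (95% interval -0.83 to 0.55). Zfyve9 had 539, 326, 522, 413 and 581.5 in RiboTag, against 111 to 483 with a median of 271 in the naive cultures, and a log2 fold change of 0.88 (SE 0.210, limma adjusted p = 0.000766), or 0.55 above the median of all genes. By coating it was 1.41 against naive Matrigel (limma adjusted p = 3.46e-05), 0.80 against laminin (0.0127), and 0.42 against poly-L-ornithine (0.214), where it did not pass. The 3′ end of Zfyve9 overlaps that of Cc2d1b, a gene on the other strand that ends at 108638604, and the sources used here do not say whether strand was used in counting, so that reads may be shared between them. Cc2d1b averaged 136 ± 117 in RiboTag and 206 ± 82.2, 244 ± 126 and 222 ± 66.8 in naive cultures on Matrigel, laminin and poly-L-ornithine.

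Tgfbi had 458, 398, 240.0, 344 and 324 in RiboTag, against 765 to 2355 with a median of 1284 in the naive cultures. The groups did not overlap, and the log2 fold change was -1.95 (SE 0.183, limma adjusted p = 5.19e-11), a fold of 0.258. The fibroblast markers moved the same way. Their sum ran from 9037 to 12441 in RiboTag, against 28454 to 96623 in the naive cultures (fold 0.200, two-sided exact permutation test, p = 0.000129, the smallest this test can give with libraries taken as separate, adjusted p = 0.00111). Smooth muscle and glial marker sums were higher in RiboTag by folds of 13.5 and 5.90, with the same exact p. Macrophage markers summed to between 1685 and 2795 in RiboTag and between 219 and 1164 in the naive cultures, and enteric neuron markers to between 15544 and 21832 in RiboTag and between 5371 and 11734 in the naive cultures, again with that p. Epithelial markers had the largest fold of the lists, 37.8, with sums between 731 and 1871 in RiboTag and between 0 and 302 in the naive cultures. Markers of interstitial cells of Cajal summed to between 2023 and 2470.3 in RiboTag and between 86.6 and 347 in the naive cultures (fold 13.3), both with that exact p. Endothelial sums, between 528 and 1021 in RiboTag and between 217 and 558 in the naive cultures, overlapped (fold 2.28, exact permutation p = 0.000258). The part of these cells in the values of the members was not tested.

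**Figure D5:**
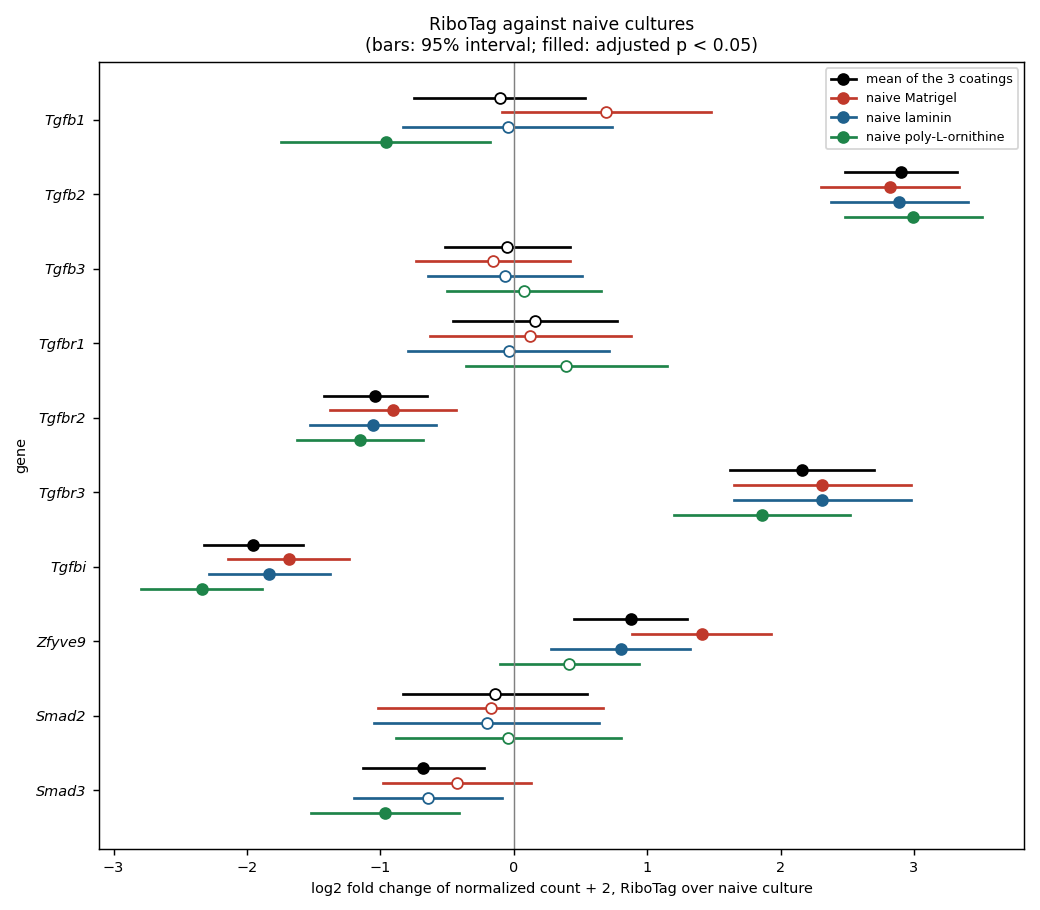
Log2 fold change (horizontal axis) of the 10 genes in RiboTag over naive cultures, for the mean of the 3 coatings and for each; points are limma estimates on log2(normalized count + 2), lines the 95% interval, and filled points have an adjusted p under 0.05. Tgfb2 (2.90) and Tgfbr3 (2.16) lie farthest right and Tgfbi (-1.95) farthest left in the mean of the coatings.

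Other genes of the pathway were described from 4 lists, chosen with earlier results of these data known. Of 32 genes known as targets of TGF-β, 18 were called in the mean response to IL-1β, 5 higher and 13 lower, where 3.42% of all genes were called higher and 4.02% lower, with a median log2 fold change of -0.50, against -0.04 for all genes. The share over all genes was larger without low genes. Of 12110 genes with a mean of at least 20, 762 were called higher and 907 lower. The filament gene Vim (-0.72, SE 0.0550, limma adjusted p = 1.86e-14) and the collagen gene Col5a1 (-0.82, adjusted p = 3.74e-09) fell. Junb, an AP-1 subunit (1.40, limma adjusted p = 9.40e-11), and Timp1, an inhibitor of metalloproteinases (2.64, limma adjusted p = 7.39e-08), rose. Timp1 had a median of 6062 normalized counts after IL-1β and 824 in naive cultures. Of these 32 genes 6 are also smooth muscle or fibroblast markers, and of the other 26, 14 were called, 5 higher and 9 lower. These 26 still hold matrix genes such as Col5a1, and the part of cell make-up in them was not tested.

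Of 21 genes for latency and activation of the ligands, 8 were called after IL-1β, 5 higher and 3 lower, beside the 7.44% of all genes called. The gelatinase gene Mmp9 ran from 238 to 4094 after IL-1β and from 0 to 182 in naive cultures, and rose by 5.52 on the log2 scale (limma adjusted p = 6.97e-08). The others called higher included Thbs1, whose thrombospondin can activate latent TGF-β (0.74, limma adjusted p = 0.000262), and Furin, whose protease cuts the ligand precursors (0.44, limma adjusted p = 0.00379). Ltbp1, a latent TGF-β binding protein, fell by 0.61 (limma adjusted p = 0.000735). Of 28 co-receptors, SMAD partners and inhibitors, 3 were called, a share near that of all genes. Tgif1, a repressor that binds SMADs, rose by 0.89 (limma adjusted p = 1.79e-06), and the corepressor Ski (-0.38, adjusted p = 0.00263) and the co-receptor Cd109 (-0.68, adjusted p = 0.0365) fell. Between the protein coatings and poly-L-ornithine none of these list genes was called, naive or after IL-1β. After IL-1β the target gene with the smallest p was Ccn1, a matricellular gene (log2 difference 0.82, limma adjusted p = 0.0916).

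In RiboTag against naive cultures, 27 of the 32 target genes were called, 6 higher and 21 lower, where 45.5% of all genes were called, 31.3% higher and 14.1% lower, with a median log2 fold change of -1.39, against 0.32 for all genes. Of 13020 genes with a mean of at least 20, 4395 were called higher and 2886 lower. Among those with the smallest adjusted p were Cdkn1a (-3.18, limma adjusted p = 2.34e-20) and Cdkn2b (-6.94, limma adjusted p = 8.58e-18), which encode inhibitors of the cell cycle, and the matrix genes Tnc (-2.07) and Fn1 (-2.34). Cdkn2b was at 0 in 3 of 5 RiboTag libraries and at most 13.5 in the others, against 344 to 767 in the naive cultures, so that its fold change depends on the pseudocount. Of the 26 target genes outside the marker lists 21 were called, 3 higher and 18 lower. These 26 still hold matrix genes such as Fn1 and Tnc, and the part of cell make-up in them was not tested. Of the 21 latency and activation genes 15 were called, 6 higher and 9 lower, among them Ltbp1 (2.30, limma adjusted p = 7.39e-14) and the integrin subunit Itgb3 (2.65, adjusted p = 1.59e-10) higher, and Mmp2 (-2.62, adjusted p = 1.07e-15) and Itgb5 (-1.68, adjusted p = 5.90e-10) lower. Of 27 co-receptors, partners and inhibitors tested, 19 were called, 6 higher and 13 lower, to be read, as are the counts of the other lists, against the 45.5% of all genes. The feedback inhibitor Pmepa1 (1.93, limma adjusted p = 3.15e-10) and the phosphatase Ppm1a (1.21, adjusted p = 3.46e-10) were higher, and Dab2 (-1.45, adjusted p = 6.15e-10) and Cd109 (-2.62, adjusted p = 1.31e-08) were lower.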

How the data were processed

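QuantSeq 3′ mRNA libraries of 35 samples, 5 labelled biological replicates in each of 7 groups, were analysed, and p-values measure the spread between these samples. Per the labels and the study's methods, the authors trimmed reads with cutadapt, aligned them to mm10 with STAR in Partek Flow and normalized them with DESeq2. The annotation is not given in sources used here. The deposited signal is a normalized count, an estimated count divided by 1 size factor per library. It is not whole, so that limma 3.58.1 (R 4.3.3, trend and robust) on log2(normalized count + 2) replaced a count test, and a fold change understates that of low genes. Of all values 33.9% were 0. Genes with a maximum of 15 or less were left out. The 30 cultures (20687 genes) and RiboTag with the 15 naive cultures (20320 genes) were fitted separately, with Benjamini-Hochberg adjustment per comparison at 0.05. Alternatives were pseudocounts of 1 and 8, no filter, a mean of at least 20, scaling by total or upper quartile, limma-voom weights, fits of only the groups compared, a replicate block, and leaving out each library. The script was tested on simulated data. No libraries were identical (highest correlation 0.930).

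The members and lists were chosen with earlier results of these data known. All 10 members are named, and from each pathway list up to 4 called genes with the smallest adjusted p per comparison, or up to 2 with the smallest p where none was called. Single values of some list genes are not reported here. Promoters came from RefSeq (GRCm38.p6). Marker sums were compared with two-sided exact permutation tests over libraries on the log2 scale. These tests and the main limma fits took each library as separate and used no replicate block. A shared origin of cultures, at which the serial numbers in the sample names hint, is therefore not in their p-values.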

Additional observations from a re-analysis of the deposited data

Results flagged for a closer look

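In naive poly-L-ornithine cultures, 1 library stood apart for Tgfb2, with 464 normalized counts (463.976), against 310.02 in the next highest. Without it the log2 fold change of Tgfb2 after IL-1β on poly-L-ornithine was 0.07, against -0.05 with it, and neither passed the test. In naive laminin cultures, replicate 2 stood apart for Tgfb3, with 1235 normalized counts (1235.37), against 615 in the next highest. Without it the log2 fold change of Tgfb3 after IL-1β was -1.51 over the 3 coatings (limma adjusted p = 1.48e-05) and -1.64 on laminin (limma adjusted p = 0.0333), so that both calls held. In all, 70 groups of 5 libraries were tested for such a gap, of which chance gives about 3.5. No member's IL-1β response differed between coatings by the test of the difference.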

How the results depend on the processing

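No called difference of a member changed sign under the alternatives, and the 3 calls of the mean IL-1β response (Tgfb3, Tgfbi, Tgfbr3) and the RiboTag calls of Tgfb2, Tgfbr3, Tgfbi, Tgfbr2 and Zfyve9 held in every alternative and without any 1 library. Counts of members called moved in single-coating comparisons; where no construction shows it, the cause was not tested. For IL-1β on Matrigel the count was 1, with a mean of at least 20 it was 2, and in a fit of only the groups compared 3. On poly-L-ornithine it was 1, and 2 with a mean of at least 20, with upper quartile scaling, with limma-voom weights and with only the groups compared. On laminin it was 3, and 2 in each of 4 alternatives, which lost Tgfb3 (only the groups compared, limma adjusted p = 0.0569), Tgfbr3 (limma-voom, 0.0692) or Tgfbi (library totals rescaled, 0.0506, and the title-number replicate block, 0.0620). Between the protein coatings and poly-L-ornithine after IL-1β it was 1, and 0 with no filter (Tgfb1, limma adjusted p = 0.0502). With only the groups compared, Matrigel and laminin alone each gave 1 against 0. Leaving out 1 library gave 1 to 2 on Matrigel, 1 to 3 on laminin, 0 to 2 on poly-L-ornithine and 0 to 1 between coatings after IL-1β.

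Title numbers did not pair the libraries (75 pairs of cultures with the same number, mean correlation -0.02, and 1 of 30 libraries correlated best with its own number). The replicate block by these numbers gave 0 members for IL-1β on poly-L-ornithine and 0 between coatings after IL-1β. The rank of the serial number in the sample names gave a mean correlation of 0.0976, with 30 of 75 pairs over 0.1 and 30 of 30 libraries best with their own rank, a hint from the data and not from the design. The replicate block by that rank gave 3 members on Matrigel, 2 on poly-L-ornithine, 2 between coatings after IL-1β, 2 for Matrigel alone and 1 for laminin alone. The 2 between coatings were Tgfb1 and Tgfbi, Tgfbi being called lower on the protein coatings (log2 difference -0.995, limma adjusted p = 0.00629) and on Matrigel alone (-1.35, limma adjusted p = 0.00142), in this alternative only. It called 703, 659 and 765 genes for IL-1β on Matrigel, laminin and poly-L-ornithine, against 405, 389 and 484. Between coatings it called 20 against 0 genes in naive cultures and 218 against 63 after IL-1β (Matrigel alone 147 against 28, laminin alone 105 against 11), and 5 against 0 for the difference of responses. With only the groups compared these were 2 in naive cultures, 53 for Matrigel alone and 26 for laminin alone, with a mean of at least 20 laminin alone gave 6, and limma-voom gave 1 in naive cultures and 3 for the difference of responses.

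Upper quartile scaling called 587 genes higher and 1056 lower after IL-1β over the coatings, against 708 and 831, and 199 and 328 on poly-L-ornithine, against 249 and 235. After IL-1β limma-voom called 30 genes higher and 36 lower on the protein coatings, against 46 and 17, and 12 and 12 for Matrigel alone, against 20 and 8.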

Other observations

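Activin receptors also signal through SMAD2 and SMAD3. Activin and GDF genes were read as a further list, in which not every ligand is known to use these receptors. Of 13 measured, 2 were called after IL-1β over the coatings, the type I receptor Acvr1b (log2 fold change 1.13, limma adjusted p = 0.0191) and the stress-induced ligand Gdf15 (0.78, limma adjusted p = 0.0426), both higher, where 7.44% of all genes were called. In RiboTag against naive cultures 8 of 13 were called, 3 higher and 5 lower, where 45.5% of all genes were called, 31.3% higher and 14.1% lower. Gdf15 (-4.26, limma adjusted p = 1.87e-13) and Fstl1, a follistatin-like secreted protein (-1.85, limma adjusted p = 3.26e-12), were lower, and the receptors Acvr1c (4.12, limma adjusted p = 2.26e-05, at 0 in 13 of 15 naive libraries and at 7.21 to 172 in RiboTag) and Acvr2b (2.87, limma adjusted p = 0.000813) were higher.

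The genes whose level followed each member most closely over the 30 culture libraries are given as a description, by Pearson's r on log2(normalized count + 2) among 10202 genes, over libraries that share treatments and coatings. For Tgfb3 they were Fxyd6 (0.842), Plod2 (0.841) and Cped1 (0.837). For Tgfbi they were Poc1a (0.852), Tmem158 (0.851) and Scarb2 (0.836), and for Tgfbr3 they were Slco3a1 (0.808), Cebpb (0.750) and Cd47 (0.736). Tgfbr2 was followed by Sesn3 (0.829), Pqlc3 (0.793) and Nedd4 (0.718), and Tgfb1 by Fam210b (0.721), Smox (0.687) and Iqgap1 (0.677). The closest genes of the other members were Trib1 for Tgfb2 (0.702), Trbc2 for Zfyve9 (0.758), Macroh2a1 for Smad3 (0.665), Nhlrc2 for Tgfbr1 (0.652) and Rpl36 for Smad2 (0.604).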
